A study of Caenorhabditis elegans with 2 samples.

Results

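The 300 strongest sites of UNC-86 in young larvae were examined, as peaks of chromatin immunoprecipitation followed by sequencing (ChIP-seq). They were chosen by signal value alone, as the 300 of 2987 optimal peaks with the highest value. The optimal list is the authors' list from the irreproducible discovery rate procedure. Its 2987 signal values equal the 2987 highest of the authors' list from the pooled reads. The other 2687 optimal peaks served for comparison. Both libraries came from hermaphrodites of strain OP476, which carries unc-119(tm4063) on chromosome III and the transgene wgIs476, a stably expressed UNC-86 with a C-terminal GFP-FLAG tag (also given as eGFP). The L1 larvae, starved after bleaching, were collected 6 hours after synchronization, as whole organisms. There were 2 biological replicates of this 1 group, and no other genotype, stage or treatment was compared. The immunoprecipitation used an antibody against GFP. The labels do not say whether the transgene follows the pattern of the endogenous gene, and a peak in whole larvae carries no information on which cells it came from. Peak lists hold no read counts, so depth is unknown.

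UNC-86 is a transcription factor with a POU domain, which joins a POU-specific domain to a homeodomain. Factors of this family are known to bind A/T-rich octamer-like sequences, and UNC-86 binds together with the LIM homeodomain protein MEC-3 at genes of the touch receptor neurons. It is expressed in a subset of neurons and their precursors and is required for the identity of touch receptor, serotonergic and other neuron classes. Many protein-coding genes of C. elegans are trans-spliced: a short leader from an SL RNA replaces the first part of the transcript, so an annotated 5′ end often marks the splice site and not the start of transcription.

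Windows of 75 bp either side of a summit are shown for peaks that represent the main kinds of site. All are on the ce11 build, plus strand, written 5′ to 3′. The first 3 are the strongest peaks at a promoter, in an intron and in intergenic sequence, and in the third of these the capitals mark GAGAGA on either strand. The window near rpl-3 and the window in Y111B2A.12 held no GAGAGA.
Upstream of rpl-3, chrIII:3867496-3867646: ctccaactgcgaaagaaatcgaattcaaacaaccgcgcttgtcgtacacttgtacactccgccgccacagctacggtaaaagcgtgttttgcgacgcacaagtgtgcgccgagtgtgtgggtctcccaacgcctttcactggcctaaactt
Intron of Y111B2A.12, chrIII:12612581-12612731: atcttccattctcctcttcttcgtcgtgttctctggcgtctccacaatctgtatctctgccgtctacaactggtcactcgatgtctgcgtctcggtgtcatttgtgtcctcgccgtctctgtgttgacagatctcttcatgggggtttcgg
Intergenic, nearest coding gene hif-1, chrV:20778365-20778515: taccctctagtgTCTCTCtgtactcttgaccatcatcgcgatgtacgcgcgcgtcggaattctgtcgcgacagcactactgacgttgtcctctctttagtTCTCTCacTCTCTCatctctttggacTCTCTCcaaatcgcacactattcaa

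The next windows carry single sequences that the comparisons below turn on. In the first, capitals mark AATGCAT, a sequence with the core of a POU-type site, which overlaps its own reverse complement here. In the second, they mark ATGCAAAT, the octamer of POU factors in vertebrates. The third is the window with the most GAGAGA, 11 overlapping matches, in capitals. In the fourth they mark GCAAGC, read on the minus strand.
Upstream of eif-3.B, chrII:14795043-14795193: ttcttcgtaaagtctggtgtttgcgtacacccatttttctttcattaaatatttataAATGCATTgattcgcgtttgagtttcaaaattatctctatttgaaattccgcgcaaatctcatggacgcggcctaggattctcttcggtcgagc
At hmgs-1 and F25B4.4, chrV:5684662-5684812: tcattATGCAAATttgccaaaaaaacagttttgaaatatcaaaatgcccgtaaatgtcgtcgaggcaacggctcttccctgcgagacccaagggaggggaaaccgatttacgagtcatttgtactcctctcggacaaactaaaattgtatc
Upstream of daf-14, chrIV:10252410-10252560: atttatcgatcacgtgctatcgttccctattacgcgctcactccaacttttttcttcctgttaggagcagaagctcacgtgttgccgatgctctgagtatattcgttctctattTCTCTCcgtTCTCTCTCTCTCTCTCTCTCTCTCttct
Upstream of eelo-2, chrIV:17249828-17249978: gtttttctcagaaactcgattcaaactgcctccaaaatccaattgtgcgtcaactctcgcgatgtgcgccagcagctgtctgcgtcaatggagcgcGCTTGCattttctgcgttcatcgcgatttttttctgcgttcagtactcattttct

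The signal value that chose the peaks was computed by the authors on a scale that the sources used here do not state. It spanned 359.981 to 1708 over the 300 peaks, with a median of 495.3, and 66.41 to 359.3 over the other optimal peaks, with a median of 116.7. The values ran on without a break at the threshold. The last peaks inside had 361.183 (at rpr-1), 360.157 (between ndub-8 and cup-14) and 359.981 (at hil-7, a linker histone gene), and the first outside had 359.26 (at rpl-41.2), 359.136 (at mrck-1) and 358.686 (at F17E5.2). Since the signal fixed the membership, these values are a description.

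Each replicate also had its own peak list, in which a peak was matched by an overlap of at least 1 bp and, among several, by the nearest summit. All 300 lay among the 2987 strongest peaks of both replicates, as did 2171 of the other 2687. Of the 300, 259 (86.3%) lay among the 300 strongest of both, 18 in the top 300 of replicate 1 only, 22 of replicate 2 only and 1 of neither. The signal in replicate 1 ran from 129.1 to 806.8 with a median of 227, and in replicate 2 from 57.43 to 902 with a median of 268.2. Replicate 2 gave the higher value at 276 of the 300. The log2 ratio of replicate 2 over replicate 1 had a median of 0.29 and an SD of 0.21 over the 300 peaks, and a median of 0.35 and an SD of 0.48 over the other optimal peaks. A single member, rank 246 near 21ur-13313 on chromosome III, differed by more than 2-fold from that median, with 129.1 in replicate 1 and 57.43 in replicate 2. It shares its start and end with the stronger peak of rank 14, and 10 of the 300 share an interval with another optimal peak in this way. The members were shorter than the others, with a median length of 260 bp against 396 bp: 2 of the 300 (0.667%) and 83.1% of the other optimal peaks were exactly 396 bp long. Short peaks were not particular to the 300: the next part of the list by signal, from 360 to 242.6, had a median length of 189 bp.

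**Figure D1:**
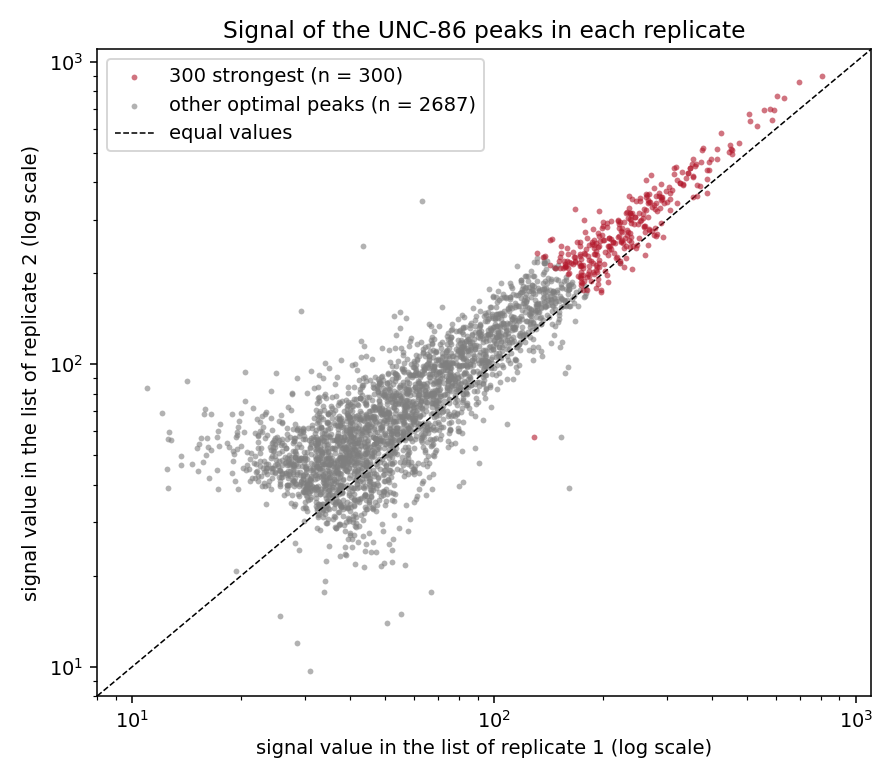
Signal value of each optimal peak in the lists of replicate 1 (x axis) and replicate 2 (y axis), both on log scales, for the 300 strongest peaks (red) and the other 2687 (grey), with a dashed line at equal values. The 300 form the upper end of 1 continuous cloud, 276 of them above the line, and 1 red point, with 129.1 and 57.43, lies far outside the others.

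The promoter peaks among the 20 strongest are named here as a description. The highest signal of all, 1708 (806.8 in replicate 1 and 902 in replicate 2), stood on chromosome III from 3867413 to 3867737, with its summit 283 bp upstream of rpl-3 (WBGene00004414), a protein of the large ribosomal subunit. The second, 1555 (696.2 and 860.3 in replicates 1 and 2), lay 54 bp upstream of tasp-1, which encodes a taspase-like protease, and 731 bp upstream of K01G5.10. The third, 1396 (631.3 and 761.4), lay between Y17G9B.5 and rpl-20, with cyc-2.1, a cytochrome c gene, also within reach. Further peaks among the 20 strongest stood at rpl-35 (1255) and rpl-15 (950.2), at cdc-48.1 (1231), the AAA ATPase of protein degradation, and at hsp-60 (1144) and hsp-90 (970.2), chaperones of the mitochondrion and the cytosol. Several of these summits are shared: Y22D7AL.10 lies nearer to the peak at hsp-60, and C47E8.4 nearer to the peak at hsp-90, than the chaperone gene does, and C06A1.9 and C06A1.7 share the peak at cdc-48.1. Others stood at cox-5A (1017), a subunit of cytochrome c oxidase, ints-4 (948.4), a subunit of the Integrator complex, and tos-1 (1014). The peak of 1274 at tag-340 and nhl-2 also covers F26F4.14; nhl-2 acts with microRNAs. A peak of 926.8 stood 47 bp upstream of egl-30, the Gq alpha subunit. The remaining promoter peaks among the 20 were at 2 SL2 RNA genes, sls-2.4 (1156, with R12E2.18 and egg-5) and sls-2.1 (979.5, with H41C03.3), and at a piRNA gene, 21ur-13313, near sup-26 (983.8).

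Of the 300 summits, 254 (84.7%, exact 95% interval 80.08 to 88.55) lay in a promoter window, which reaches 1500 bp upstream and 500 bp downstream around the 5′ end of each annotated transcript. Among the other optimal peaks 2134 (79.4%, 77.84 to 80.93) did, a difference of 5.25 percentage points that passed narrowly (two-sided Fisher's exact test, Benjamini-Hochberg adjusted p = 0.0496 over 6 positions). The clearer contrast was between divergent genes. A space flanked by the 5′ ends of 2 protein-coding genes that point away from each other held 94 of the 300 summits (31.3%) against 546 (20.3%) of the others, 1.54 times the share (exact adjusted p = 0.00013). Introns went the other way, with 11 summits (3.67%) against 228 (8.49%) (exact adjusted p = 0.00685). Exons held 5 (1.67%) against 25 (0.93%), and intergenic sequence 30 (10%) against 300 (11.2%), and neither share passed the test (exact adjusted p = 0.262 and 0.627). Another optimal summit stood within 1000 bp of 44 of the 300 (14.7%) and of 277 of the others (10.3%) (exact adjusted p = 0.0476). Peaks that share a promoter are not independent, so these p-values are too small. The promoter share no longer passed when peaks with a stronger summit within 1000 bp were dropped (exact adjusted p = 0.0953). The same held when the 2987 strongest peaks of replicate 2's own list replaced the optimal peaks (exact adjusted p = 0.0902). With that list the share with a near summit no longer passed either (exact adjusted p = 0.278). With the 150 strongest peaks as members, none of the differences in position or gene class given here passed.

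**Figure D2:**
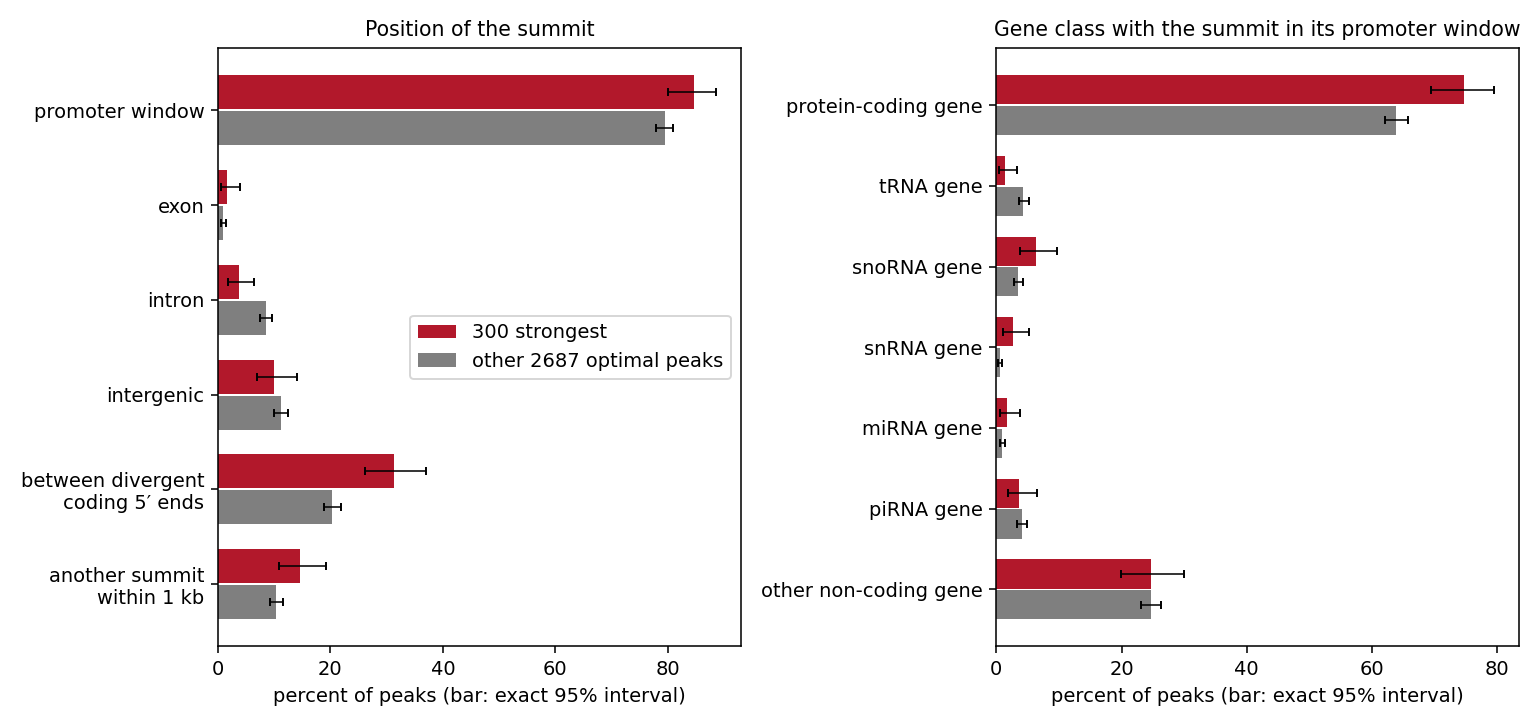
Percent of the 300 strongest peaks (red) and of the other 2687 optimal peaks (grey) at each position (left) and with each class of gene at the summit (right), with exact 95% intervals. The intervals are apart for divergent 5′ ends (31.3% against 20.3%), introns (3.67% against 8.49%), protein-coding genes (74.7% against 63.9%), tRNA genes (1.33% against 4.32%) and snRNA genes (2.67% against 0.558%).

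No chromosome's share differed past the threshold. Chromosome III, which carries unc-86, held 67 of the 300 (22.3%, 17.75 to 27.47) and 482 of the others (17.9%, 16.5 to 19.44), with an exact adjusted p of 0.422 over the 6 chromosomes. The other exact adjusted p-values were all 0.676, with 60 of the 300 on I, 40 on II, 44 on IV, 37 on V and 52 on X.

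A protein-coding gene had the summit in its promoter window at 224 of the 300 (74.7%) and at 1717 of the others (63.9%) (exact adjusted p = 0.00114 over 7 classes of gene). Those 224 summits lay at a median of 228.5 bp upstream of the nearest such 5′ end, and 214 (95.5%) lay upstream of it. Of them, 124 (55.4%) stood 100 to 500 bp upstream, against 869 of 1717 (50.6%) among the other peaks. At 109 of the 300, and at 635 of the other 2687, the summit was within reach of at least 2 coding genes. The median number of genes of any kind was 2 per summit for the 300 and 1 for the others. The 300 peaks reached 345 protein-coding genes, which is 1.73% of the 19973 annotated. All optimal peaks together reached 2612, or 13.1%.

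**Figure D3:**
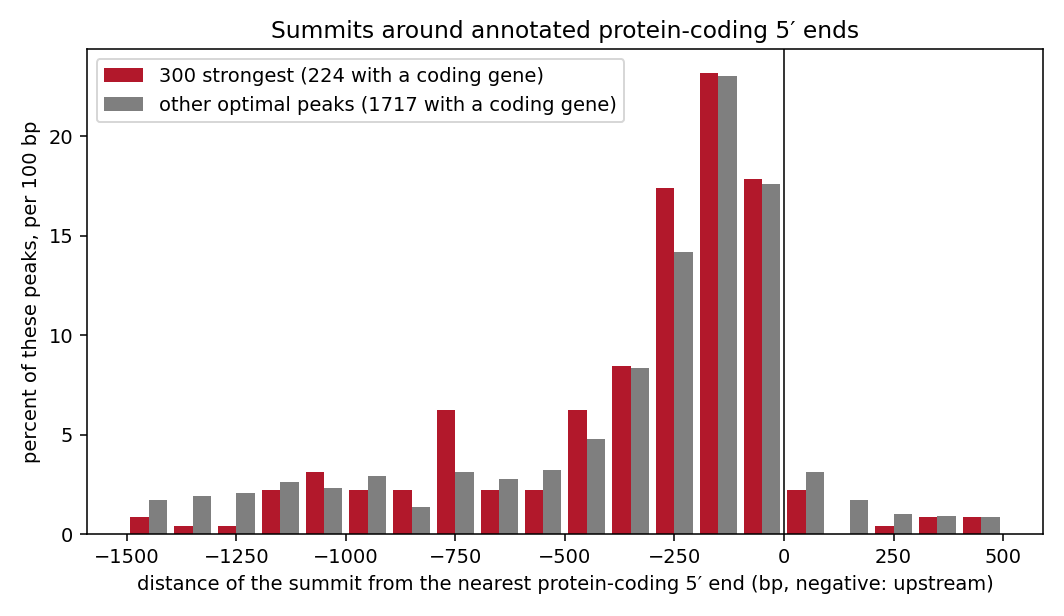
Distance of the summit from the nearest protein-coding 5′ end (bp, negative upstream), in steps of 100 bp, as percent of the peaks with a coding gene in reach: 224 of the 300 strongest (red) and 1717 of the others (grey). Both peak between 100 and 200 bp upstream, with 23.2% of the red and 23.1% of the grey peaks, and both drop sharply downstream of the 5′ end.

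Non-coding genes differed by class. Genes of the snRNA class, which here includes the SL2 RNAs of trans-splicing, stood at 8 of the 300 summits (2.67%) and 15 of the others (0.558%), 4.78 times the share (exact adjusted p = 0.0042). snoRNA genes, whose RNAs guide the modification of ribosomal RNA, stood at 19 (6.33%) against 93 (3.46%) (exact adjusted p = 0.0403). At 11 of those 19 (57.9%), against 26 of the 93 (28%), the snoRNA gene lay inside a protein-coding gene of the same strand whose promoter held the same summit. rpl-15, rps-12, iff-2 and rpl-7A are genes with a snoRNA gene at the same summit. The snoRNA share did not pass with either replicate's list alone (exact adjusted p = 0.0618 with replicate 1's and 0.138 with replicate 2's), and over its 7 alternatives the exact adjusted p ran from 0.0202 to 0.353. tRNA genes were rarer at the members, 4 (1.33%) against 116 (4.32%) (exact adjusted p = 0.0188, and 0.0514 without chromosome III), and all 4 stood on chromosome X. The shares of microRNA, piRNA and other non-coding genes did not pass the test, with 5, 11 and 74 of the 300. One of the 5 microRNA peaks, with a signal of 633.4, stood 292 bp upstream of cel-mir-54, with cel-mir-55 and cel-mir-56 beyond it.

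At the 8 snRNA sites the summit lay close to the start of the gene. Of 18 annotated sls-2 genes, 4 carried one of the 300 and 6 any optimal peak. The peak at sls-2.1 had a signal of 979.5 (452.8 in replicate 1 and 517.4 in replicate 2), with its summit 49 bp upstream of the annotated start. That at sls-2.2 had 712.9 (354.3 and 357.8), 42 bp upstream, and that at sls-2.8 had 364.6 (147.8 and 208.4), 19 bp upstream. sls-2.4 had the highest of the 8, 1156 (511.2 and 640), with its summit 52 bp upstream. The others were 588.8 at W05B2.8 (WBGene00014543), 445.8 at C52E4.8 (WBGene00014291), 435.8 at F38E11.10 (WBGene00014366) and 388.1 at sup-6, and all 8 summits lay between 58 bp upstream and 6 bp downstream of the gene's start. Such a position was not particular to the 300: weaker summits stood 66 bp upstream of F54D8.7, 32 bp upstream of F32B5.9 and 50 bp upstream of F08G2.10. Others lay farther off, 1363 bp upstream of sls-2.14 and 322 bp downstream at smy-1. At 5 of the 8 a weaker optimal summit stood on the far side of the start, 200 to 216 bp from the first, with a signal of 67.56 at the lowest and 310.9 at the highest. This spacing is close to 199 bp, the smallest distance between optimal summits in the whole list. At sls-2.4 both summits lie in the same interval. Such snRNA genes belong to multigene families, so reads may have been split between copies by the authors' mapping.

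The 70 bases upstream of the annotated start are shown for 7 of these genes, on the gene's strand. Upstream of C. elegans snRNA genes lies the proximal sequence element, bound by the complex that starts their transcription. Capitals mark CGNAA and TGTCNG, where N is any base, a pair chosen after the windows were read, on the gene's strand only.
sls-2.1, chrII:5844795-5844864 (plus strand): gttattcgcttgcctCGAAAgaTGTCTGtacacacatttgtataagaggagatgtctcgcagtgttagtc
sls-2.2, chrII:5543528-5543597 (plus strand): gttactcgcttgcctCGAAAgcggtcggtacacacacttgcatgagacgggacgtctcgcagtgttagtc
W05B2.8, chrIII:10989609-10989678 (plus strand): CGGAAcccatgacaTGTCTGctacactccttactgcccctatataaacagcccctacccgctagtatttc
C52E4.8, chrV:11980048-11980117 (plus strand): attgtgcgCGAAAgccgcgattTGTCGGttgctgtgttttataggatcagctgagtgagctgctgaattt
F38E11.10, chrIV:9444572-9444641 (plus strand): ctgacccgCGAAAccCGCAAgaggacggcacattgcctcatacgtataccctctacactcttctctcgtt
sup-6, chrII:12944968-12945037 (minus strand): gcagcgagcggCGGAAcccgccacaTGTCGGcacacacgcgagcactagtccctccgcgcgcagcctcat
sls-2.8, chrIII:12250395-12250464 (plus strand): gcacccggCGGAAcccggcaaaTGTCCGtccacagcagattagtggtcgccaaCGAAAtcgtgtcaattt

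CGNAA stood in this window in all 8 of the genes with one of the strongest peaks, and TGTCNG, and so both, in 6 of the 8. Of the 10 genes annotated as snRNA with only a weaker optimal peak, 7 held CGNAA and 7 TGTCNG, with both in 4. These 10 include mir-1831, which shares its peak with sup-39, so the windows of these genes overlap. They also include sls-2.14 and smy-1, whose summits lay farther from the start. Of the 111 snRNA genes with no optimal peak, 55 (49.55%) held CGNAA, 65 (58.6%) TGTCNG and 32 (28.8%) both. Of the 19973 protein-coding genes, 18.7% held CGNAA, 3.465% TGTCNG and 0.576% both. These counts describe the windows and were not tested. At 4 of the 7 genes shown, the 2 sequences start 14 bases apart.

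Lists of genes for translation, protein folding and degradation, respiration, splicing, nuclear transport, membrane traffic and transcription, 13 in all, had a member gene at 62 of the 300 summits (20.7%, 16.23 to 25.7) and at 266 of the others (9.9%, 8.796 to 11.09). The 4 neuronal lists had one at 1 of the 300 (0.333%) and at 28 of the others (1.04%). By gene, 64 of the 682 on the 13 lists (9.38%) and 1 of the 85 on the 4 neuronal lists (1.18%) had one of the 300, beside 1.73% of all protein-coding genes; among genes with any optimal peak the shares were 19.1%, 3.85% and 13.2%. The count of 1 on so short a list is near the share of all genes. The neuronal lists do not cover all genes with roles in neurons: egl-30, eat-16, unc-51, unc-76 and unc-16, picked after their values were seen, had one of the 300 and are on none of the 4. These counts take every gene in reach, and the summits of the 300 more often had at least 2 coding genes in reach than the others. Counting only the gene with the nearest 5′ end lowered the count of 13 of the 21 lists with a member by more than 1.5 times. Lists are described by counts, with no test.

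Among 82 genes of cytosolic ribosomal proteins, 18 (22%) had one of the 300 peaks, and 68 (82.9%) had some optimal peak. The strongest after rpl-3 was rpl-20, with 1396, then rpl-35 with 1255 (558.6 and 691.3 in replicates 1 and 2) and rpl-15 with 950.2 (454.5 and 497.7). Translation factors had 8 of 41 (19.5%): iff-2, the factor eIF5A, had 861, eif-3.B and eif-3.C, subunits of eIF3, had 825.7 and 495.4, and eef-2, the elongation factor that moves the ribosome, had 462.4. The 32 aminoacyl-tRNA synthetases, which charge tRNAs, had none among the 300 and 6 with a weaker optimal peak. Mitochondrial ribosomal proteins had 3 of 70 (4.29%).

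Chaperones had 11 of 69 (15.9%). hsp-60 had 1144 (531.8 and 613.4), hsp-90 had 970.2 (455.6 and 512.6), hsp-1, the constitutive Hsp70, had 834.9 (354.6 and 478.1), and cct-1, a subunit of the cytosolic chaperonin, had 727.1 (332.8 and 391.3). Many of these summits had other genes in reach. Counting only the gene with the nearest 5′ end, coding or non-coding, left 2 of the 11 chaperones. It left 10 of the 18 ribosomal proteins and 5 of the 8 translation factors. The nearer gene was at times a non-coding one, such as F26D10.23 at the peak of hsp-1. The list of 44 genes of the respiratory chain and ATP synthase had 5 (11.4%), with cyc-2.1 at 1396, cox-5A at 1017, atp-1 at 614.1 and cox-5B at 439.9. The nearest rule left 3. That list is not complete: ndua-8 (430.8), nduc-2 (389.8) and ndub-8 (360.157) also had one of the 300 and are not on it. Membrane traffic had 10 of 94 (10.6%), led by sec-61.G, a subunit of the translocon, with 760.1, followed by sec-61.B (499.8), vps-32.1 (488.7) and rab-18 (439.4), and 4 under the nearest rule. Within the proteasome (1 of 33), splicing factors (2 of 60) and nuclear pore and transport genes (1 of 40), the shares with one of the 300 were 3.03%, 3.33% and 2.5%, against 1.73% of all protein-coding genes, and 54.6%, 55% and 57.5% had some optimal peak. Of those with an optimal peak, 5.56%, 6.06% and 4.35% had one of the 300, against 13.2% over all such genes. The nearest rule left 0 proteasome genes, 0 splicing factors and 1 nuclear pore and transport gene.

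Smaller groups with regulatory roles were also present. Of 12 heterochronic genes found, which time the events of larval development, 3 had one of the 300: ain-1 (475.8), a component of microRNA silencing, lin-28 (473.2, 228.2 in replicate 1 and 242.4 in replicate 2), an RNA-binding protein that blocks let-7, and lin-66 (378.8). On a list of 36 cell cycle kinases, cyclins and related genes 4 did: cdk-5 (507.1), efl-1 (392.5), lin-35 (364.5), the worm Rb protein, and cdk-7 (362.8). Listing follows the gene symbol and does not show a role of cdk-5 in the cell cycle. Histone genes had 5 of 81 (6.17%), with htz-1, the variant H2A.Z, at 656.8, his-37 at 654.6, and his-67 and his-68 at 1 peak of 367.5, and 3 under the nearest rule. Actin and tubulin genes had 2 of 21, tba-1 (439.9) and tba-2 (382.3). General transcription had 3 of 62 (4.84%), mdt-19 (552), rpb-11 (465.2) and taf-4 (369.7). Insulin signalling had 1 of 19 (5.26%), ftt-2 (638.3), and calcium signalling 1 of 25 (4%), crt-1 (431.1), which encodes calreticulin. The nearest rule left 0 on both of these lists and 1 of the actin and tubulin genes. Nuclear hormone receptors had nhr-47 (455.7) alone of 274. F-box genes had 4 of 327 (1.22%), close to the share of all genes. Only 9 of the 327 had any optimal peak, and 44.4% of those had one of the 300, against 13.2% over all such genes. These are few genes, the difference was not tested, and fbxl-1 among them lies within 20 kb of unc-86.

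Genes for which UNC-86 is known were too few for their counts to be set apart from those of all genes, of which 1.73% had one of the 300, or 13.2% of those with any optimal peak. No touch receptor gene of 16 had a member at its promoter (0 of 16, which allows a share of up to 20.6%), though 5 had a weaker optimal peak. mec-7, the touch neuron tubulin, had the best rank of these, 1089, with a signal of 160.8. Next came mec-10 (130.4), a channel subunit, and mec-3 (113.5), the partner of UNC-86. Among 14 genes listed as known targets, 0 had one of the 300 and 3 had a weaker peak: unc-86 itself, mec-7 and mec-3. At unc-86, reads of the transgene cannot be told apart from those of the gene itself. Of 35 transcription factors of neuronal fate, 0 had a member. Pan-neuronal genes had 1 of 25 (4%), egl-3, a proprotein convertase for neuropeptides, with 474.7 (208.4 and 260.9), and its summit lay 1082 bp upstream with 3 other genes in reach. In all, 18 (72%) of the 25 had an optimal peak; unc-64, the syntaxin of the synapse, stood at rank 312 with 355.9 and unc-11 at 479 with 281.1. Chemoreceptors (0 of 1263), neuropeptides (0 of 141), collagens (0 of 170), potassium channels (0 of 63) and 26 genes of body muscle, intestine, hypodermis and germline (0 of 26) had none of the 300.

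**Figure D4:**
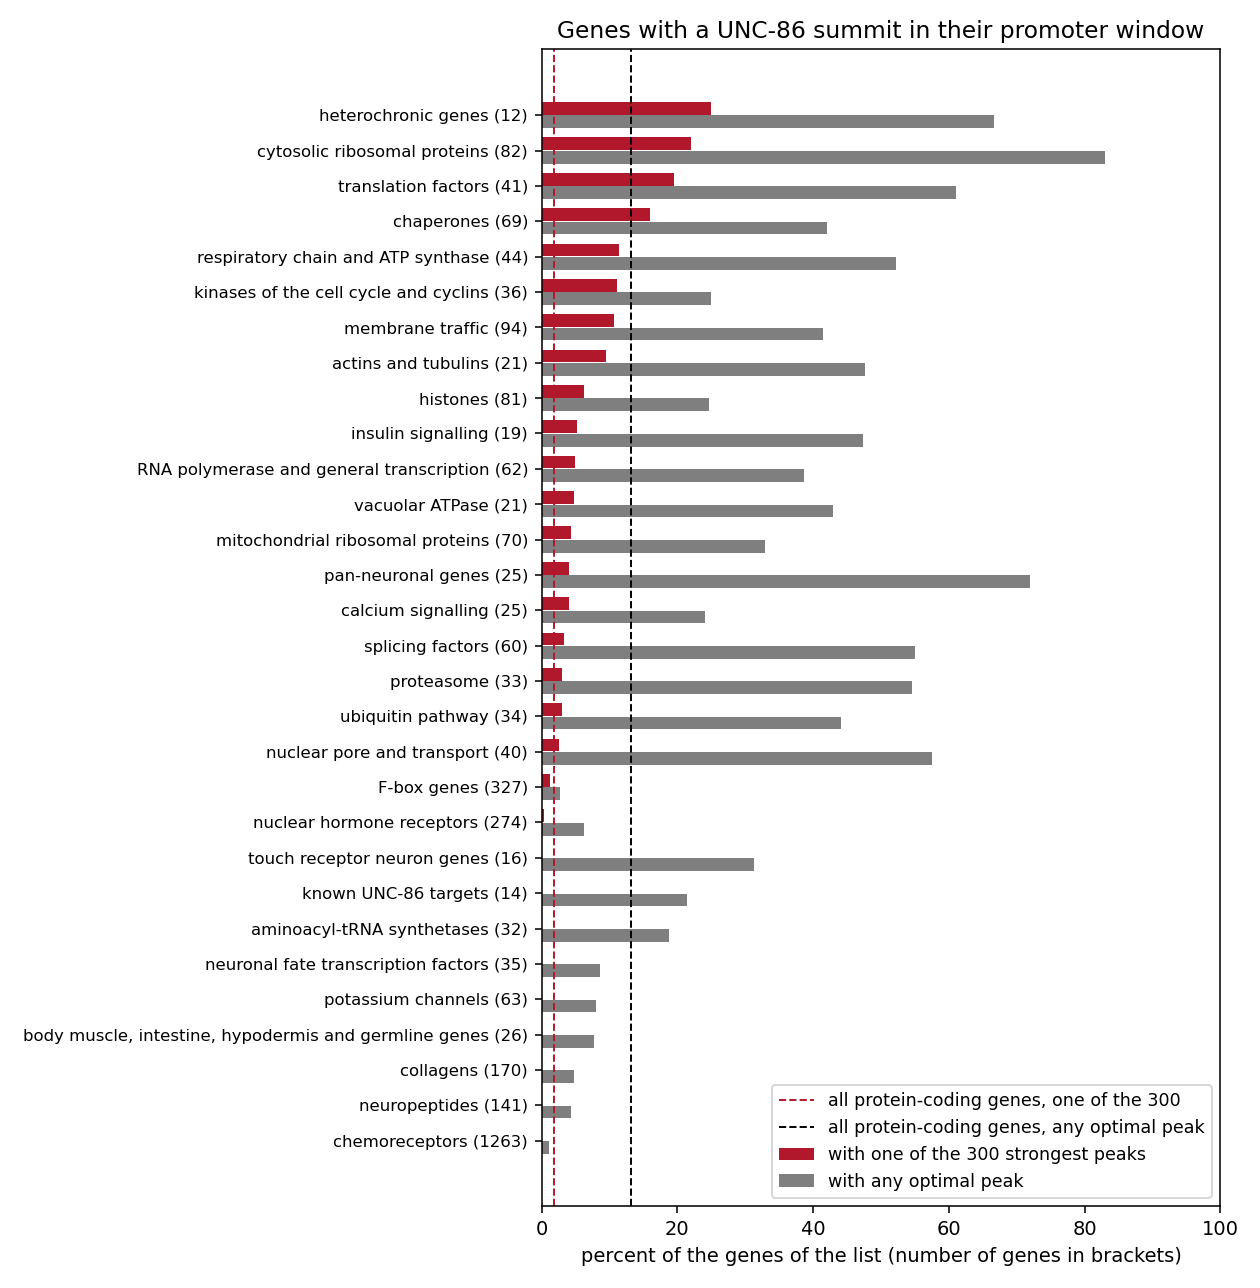
Percent of the genes of each of 30 lists with one of the 300 strongest summits (red) or any optimal summit (grey) in their promoter window, with dashed lines at the share of all protein-coding genes (1.73% and 13.1%). Ribosomal proteins (22% and 82.9%), translation factors and chaperones stand near the top in red, whereas pan-neuronal genes reach 72% in grey and 4% in red.

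The unc-86 locus on chromosome III fell on both sides of the threshold. Of 12 optimal peaks within 20 kb of the gene, 3 were among the 300, beside 300 of 2987 over the whole list. The strain also carries UNC-86 as a transgene, and peak lists cannot tell its reads from those of the endogenous locus. Its share in these signals was not tested. One, with 602.3 (241.1 in replicate 1 and 352.4 in replicate 2; rank 87), lay from 8211572 to 8211984, at the non-coding gene C30A5.15 and beyond the 3′ end of unc-86. The other two, with 534 and 376.5, lay at fbxl-1. The strongest peak in the promoter window of unc-86 had 356.2 (155.9 and 188.7), at rank 311, and so fell just short.

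Away from promoters, 46 members remained. The strongest intronic peak lay in Y111B2A.12, with 1276 (593.5 and 691.6 in replicates 1 and 2), and pqn-41, a glutamine-rich protein needed for the death of the linker cell, held 3, with 1185, 897.9 and 543.7. mom-1, the porcupine-like protein that modifies Wnt ligands, held one of 745.7, and mef-2, a MADS-box transcription factor, one of 727.7. In exons the strongest stood in linc-128, a long non-coding RNA, with 1370 (605.4 and 774.6), at rank 4 of all. Then came C34C12.2 (631.5), pks-1 (416.9), C05D11.8 (409.9) and F21C10.3 (388.9). The strongest intergenic peaks had hif-1, T04C4.3, mfb-1, F20B6.9 and nlp-40 as their nearest coding genes, with 891.8, 822.4, 817.7, 766.2 and 757.2, and their summits lay more than 1500 bp upstream or more than 500 bp downstream of the nearest annotated 5′ end.

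GAGAGA, the sequence of GAGA-type elements, was the most frequent of 12 sequences searched on both strands in the 151 bp windows. It stood in 132 of the 300 (44%, 38.3 to 49.82) and in 952 of the others (35.4%, 33.62 to 37.27), with an exact adjusted p of 0.0173 over the 12. In the flanks centred 500 bp from the members' summits it stood in 8%, and in 12.9% of windows just upstream of all protein-coding 5′ ends. Of the members, 67 held it at least 2 times, and its median distance from the summit was 28 bp. In windows of 40 to 50% G and C alone, 146 members and 1308 others, the shares were 40.4% and 39.2% (exact adjusted p = 0.947), and over the 10 alternatives the exact adjusted p ran from 0.0015 to 0.947. Windows of 30 bp either side, with 22% and 16.6%, did not pass (exact adjusted p = 0.0932).

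CGCGAA was also more frequent, in 43 (14.3%) against 233 (8.67%) (exact adjusted p = 0.0173), and stood in 4.33% of the members' flanks. TAATTA, the core site of many homeodomains, was rarer at the members, in 5 (1.67%) against 130 (4.84%) (exact adjusted p = 0.0242), and so was a run of 8 T or A, TTTTTTTT, in 12 (4%) against 234 (8.71%) (exact adjusted p = 0.0173). The members' flanks held TAATTA in 7% and TTTTTTTT in 15.8%, and the coding upstream windows in 9.38% and 21%. TAATTA and TTTTTTTT each lost the call in 5 of 10 alternatives, with exact adjusted p up to 0.667 and 1. None of these 3 passed in windows of 40 to 50% G and C (exact adjusted p = 0.472 for CGCGAA, 0.667 for TAATTA and 1 for TTTTTTTT). The POU-type sequence AATGCAT stood in only 4 of the 300 (1.33%, 0.3645 to 3.378), against 87 of the others (3.24%, 2.601 to 3.979), with an exact adjusted p of 0.117. The members' flanks had it in 1.5% and the coding upstream windows in 2%. The 4 were at eif-3.B (825.7), upstream of Y105C5A.1268 (642.7), at mrps-7 and vti-1 (411.9) and at F08F8.10 (402.3). Its shorter form ATGCAT, contained in it, stood in 9 (3%) against 145 (5.4%) (exact adjusted p = 0.129). The octamer ATGCAAAT stood in 2 against 35 (0.667% and 1.3%; exact adjusted p = 0.578). It stood in 1.83% of the members' flanks and 1.55% of the coding upstream windows. CACGTG (20 of 300), TATAAA (15), GATAAG (12), GGGCGG (28) and TGACGT (21) did not pass, with exact adjusted p from 0.0692 to 0.551.

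The windows of the 300 were richer in G and C, with a median of 48.3% against 44.4% in the other optimal peaks. The members' own flanks had 37.1% and the windows upstream of all coding genes 33.1%. In a count of all 2080 hexamers with their reverse complements, added after the data were seen, 40 (1.92%) were more frequent and 24 (1.15%) less frequent at the members (two-sided Fisher's exact test, adjusted over the 2080). Of the 24, 20 had at most 1 G or C, led by AAAAAA in 69 members (23%) against 1060 others (39.4%) (exact adjusted p = 2.196e-05). Of the 40, 38 had at least 3.

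GCAAGC, marked above in the window upstream of eelo-2, had the lowest p among the more frequent hexamers, though others differed by a larger ratio or a larger number of percentage points. It stood in 50 members (16.7%, 12.63 to 21.38) and 175 others (6.51%, 5.609 to 7.513), 2.56 times the share (exact adjusted p = 2.196e-05), and in 4.33% of the members' flanks. Of the 50, 47 lay at promoters, 3 of these at snRNA genes, and the median distance of its centre from the summit was 19.5 bp. Within windows of 40 to 50% G and C it stood in 21.2% of members and 6.57% of others (exact adjusted p = 0.000157). Beside it, only CAGGGA (13% against 2.98%; exact adjusted p = 0.00112) and the overlapping CCCTGC (13% against 4.05%; exact adjusted p = 0.0265) passed there. At promoters alone GCAAGC stood in 18.5% against 7.08% (exact adjusted p = 4.754e-05), and CAGGGA and CCCTGC did not pass there (exact adjusted p = 0.209 and 0.1415).

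Ordered by signal in 10 equal parts, several shares differed along the list. The share of summits between divergent coding 5′ ends was 31.4% in the strongest part, 27.1% in the next and 14.1% in the weakest. The share with a coding gene in reach was 74.6%, 78.3% and 54.2% in those parts, and the share in introns 3.68%, 5.02% and 13%. Median G and C was 48.3%, 47% and 42.4%. Summits at snRNA genes showed no steady trend: they made up 2.68% of the strongest part and 1.34% of the next, were at 0 in the fifth and sixth, and made up 1% of the weakest. For promoters the second part was above the first, with 88% against 84.6%, and the weakest had 71.2%.

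**Figure D5:**
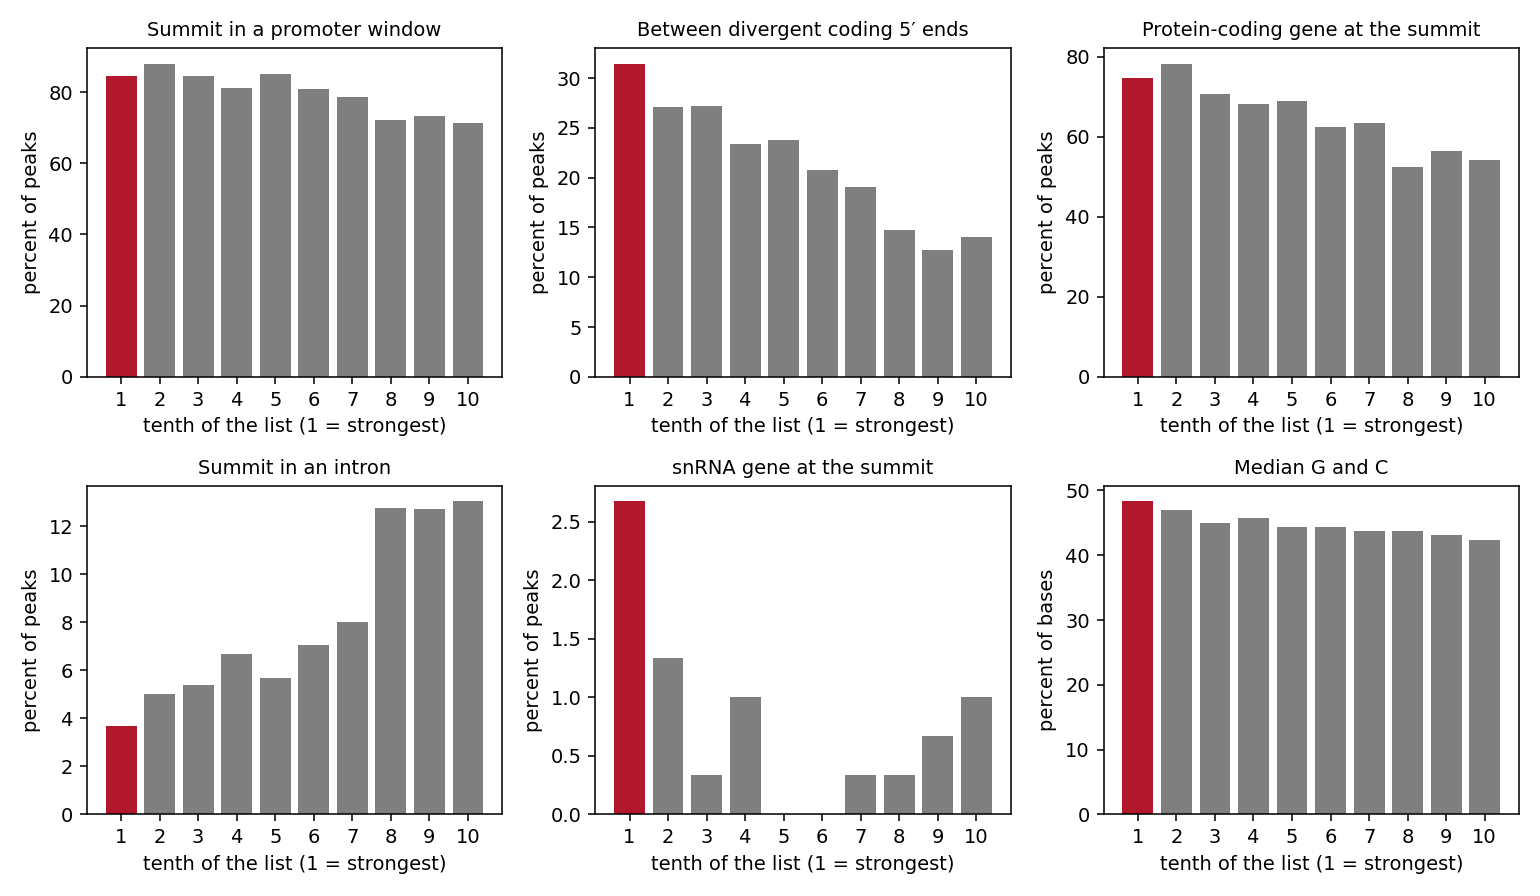
Share of summits at promoters, between divergent coding 5′ ends, with a coding gene, in introns and at snRNA genes, and median percent of G and C, in 10 parts of the optimal list ordered by signal (1 is the strongest, in red; 298 or 299 peaks each). The share between divergent 5′ ends is 31.4% in the first part and 14.1% in the last, and the share in introns 3.68% and 13%.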

How the data were processed

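ChIP-seq peak lists of 2 biological replicates, of the pooled reads and of the optimal set were used on the ce11 build, the WBcel235 assembly. Per the listing that the authors deposited, the list of each replicate came from its alignment and 1 control, and the optimal list from the irreproducible discovery rate procedure. The control was not analysed here. Aligner, peak caller and threshold are not stated in the sources used here. Signal values are those the authors deposited, and they served to rank and filter peaks within a list. The deposited −log10 q value was the same at all 2987 optimal peaks and was not used.

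Summits were set against the Ensembl annotation (release 115), and windows of 75 bp either side were read from the RefSeq WBcel235 genome. Shares of the 300 and of the other optimal peaks were compared by two-sided Fisher's exact tests with Benjamini-Hochberg adjustment within 6 positions, 6 chromosomes, 7 gene classes, 12 sequences or 2080 hexamers, at a threshold of 0.05. Intervals are exact (Clopper-Pearson) 95% intervals, which cover the counting of peaks only. The units tested were peaks, not replicates. The upper limit for a count of 0 is the exact 95% bound. Symbols listed in full were matched to all annotated genes, and symbols listed by a pattern to the 19973 protein-coding genes only. Of the heterochronic list, 5 symbols were not found. Tests were run in scipy 1.17.1 under Python 3.11.15 with pandas 2.3.3 and numpy 2.4.6, and figures drawn with matplotlib 3.10.9, and the sequence count was tested on simulated data. Genes named are those at the 20 strongest peaks, up to 4 of each list, the strongest peaks outside promoters, the sites with AATGCAT, the peaks at the threshold and those around unc-86; the others named were chosen after their values were seen. The members and lists were chosen with earlier results of these data known.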

Additional observations from a re-analysis of the deposited data

How the results depend on the processing

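Peaks were tested as units, their signal scale and read depth are unknown, and neighbouring peaks share genes. No paired analysis was possible because there is 1 group of 2 replicates. In another setting the 2987 strongest peaks of replicate 1's or replicate 2's own list replaced the optimal peaks. The promoter difference between the 300 strongest and the others was then 4.873 to 5.733 percentage points (main value 5.247), past the threshold with replicate 1's list only. The divergent, protein-coding, snRNA and GAGAGA differences passed with both lists. With the 150 strongest, the difference was 2.86 points for promoters, 7.62 for divergent 5′ ends, 5.99 for protein-coding genes, 1.997 for snRNA genes and 8.12 for GAGAGA, and none passed at that length. The promoter difference was 4.7 points among peaks with no stronger summit within 1000 bp. GAGAGA differed by 5.44 points in windows of 30 bp either side and by 1.19 in windows of 40 to 50% G and C, and passed in neither. In that range of G and C 3 hexamers differed, against 64 in all, and 34 at promoters. The nearest rule lowered the count of 13 of the 21 lists with a member by more than 1.5 times. Of the 97 alternatives run on the 12 shares that passed in the main setting, 30 (30.9%) no longer passed, and none of these shares changed direction; among the other shares 4 alternatives newly passed. The cause of these changes was not tested.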
